A study of Rattus norvegicus with 14 samples.

Results

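The amino acid transporter genes are the members of the solute carrier families Slc1, Slc3, Slc7, Slc36, Slc38 and Slc43, found by gene name on the array. The members were chosen with earlier results of these data known. The name rule matched 43 of 26115 gene names, and these 43 genes carried 53 probes. Of them, 42 encode a carrier or a carrier subunit. The other is Slc7a6os, which lies on the opposite strand beside Slc7a6 and was caught by its name only. All 43 passed the filter on dim probes, and 35 were well above background on all 14 arrays.

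Plantaris, a fast calf muscle, was taken from Wistar rats on 3 diets, with 1 Agilent 1-colour array for each muscle. Depletion rats (n = 6) had a vitamin D depleted diet, repletion rats (n = 4) a depleted diet followed by restored vitamin D, and control rats (n = 4) feed that held 1000 IU of the vitamin per kg. Strain and muscle were the same in all 3 groups; the labels give no age, sex or feeding time. Depletion replicate 1 was placed by its title, but its diet field reads repletion, so its values are followed below. The arrays sat on 5 slides. Slide 1 held depletion replicate 1, repletion replicate 1 and control replicates 1 and 2. Slide 2 carried depletion replicate 2, repletion replicate 2 and control replicate 3. Slide 3 had depletion replicates 3 and 4 with repletion replicate 3, slide 4 had depletion replicate 5 with control replicate 4, and slide 5 had depletion replicate 6 with repletion replicate 4. A level is the log2 signal of a gene's brightest probe minus the log2 75th percentile of its array, so 0 is that percentile and a difference of 1 is 2-fold. Because each probe binds with its own strength, levels are compared between arrays and not between genes. Between 82.8% and 88.1% of spots were well above background. Precision is limited by the small number of arrays. In whole muscle, fewer cells of a type and less RNA per cell cannot be told apart.

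Amino acids enter muscle fibres through carriers of distinct kinds. Sodium-driven carriers of system A and system N (the SNAT family, Slc38) load the cell with glutamine, alanine and other small neutral amino acids, and exchangers made of a heavy chain (Slc3) and a light chain (Slc7) trade some of these for leucine and other large neutral amino acids. Leucine, arginine and glutamine inside the cell and in the lysosome switch on mTORC1, the kinase complex that drives protein synthesis, and muscle is the main store from which the body draws glutamine. Many carrier genes are induced when amino acids are scarce, through the transcription factor Atf4, which pairs with C/EBP proteins on composite elements that hold a C/EBP site joined to an ATF site.

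Promoter windows from RefSeq on GRCr8, 250 bases before to 50 after a transcript start, were found for 33 of the 43 genes (37 windows). The letters TGATGNAA, the core of the C/EBP-ATF element, were searched on both strands and stood in 3 of these 37 windows (8.11%), against 3.98% of all 33469 windows. The 3 genes were Slc1a4, Slc38a1 and Slc7a1. Their windows are shown because they hold these letters. Slc1a4 and Slc38a1 were also singled out after their values were seen. Depletion minus control was 0.89 ± 0.71 (SE) for Slc1a4, 0.55 ± 0.45 for Slc38a1 and 0.55 ± 0.55 for the brighter Slc7a1 probe. These were among the 4 highest values of all members, but their errors were wide against the members' median error of 0.23. The other probe of Slc7a1 gave -0.17 ± 0.11 and the mean of its probes 0.19. With arrays left out in turn, Slc1a4 ran from -0.11 to 1.29 and Slc38a1 from 0.10 to 1.08. The brighter Slc7a1 probe ran from 0.14 to 1.05. The low ends came from leaving out control replicate 4 for Slc1a4, and depletion replicate 1 for Slc38a1 and Slc7a1. Normexp background correction (offset 50) gave 0.02, 0.29 and 0.26 in the same order. A link between the letters and these differences was not tested. TTGCATCA, a form of the same element read on the other strand and counted within it, stood in the windows of Slc1a4 and Slc38a1, against 0.795% of all windows. A vitamin D response element of the DR3 type was in 0 of 37 windows, against 0.0986% of all. At so low a share, 37 windows are too few for the count to show a lack of such elements. A match of letters is not a measured binding site. Capitals mark the match, which begins 235 bases before the start in Slc1a4 (chr14:98761513-98761812, minus strand), 142 before it in Slc38a1 (chr7:129681352-129681651, minus strand) and 30 before it in Slc7a1 (chr12:11664238-11664537, plus strand).
Slc1a4 promoter: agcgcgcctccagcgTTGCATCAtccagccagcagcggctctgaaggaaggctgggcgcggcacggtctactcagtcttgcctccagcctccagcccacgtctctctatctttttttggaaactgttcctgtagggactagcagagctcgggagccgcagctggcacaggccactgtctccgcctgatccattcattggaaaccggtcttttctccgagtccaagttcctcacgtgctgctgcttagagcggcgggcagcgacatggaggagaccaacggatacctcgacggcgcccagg
Slc38a1 promoter: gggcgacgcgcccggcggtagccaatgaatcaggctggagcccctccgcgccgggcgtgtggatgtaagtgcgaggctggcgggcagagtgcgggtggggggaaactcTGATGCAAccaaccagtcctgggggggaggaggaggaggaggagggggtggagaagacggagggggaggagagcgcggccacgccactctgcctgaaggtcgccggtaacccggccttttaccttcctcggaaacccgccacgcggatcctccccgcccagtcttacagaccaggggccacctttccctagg
Slc7a1 promoter: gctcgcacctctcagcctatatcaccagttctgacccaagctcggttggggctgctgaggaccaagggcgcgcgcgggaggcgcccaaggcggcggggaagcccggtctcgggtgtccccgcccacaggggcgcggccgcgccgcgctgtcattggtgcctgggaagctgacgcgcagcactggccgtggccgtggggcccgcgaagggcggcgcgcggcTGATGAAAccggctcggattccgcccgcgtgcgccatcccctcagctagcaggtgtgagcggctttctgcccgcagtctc

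No member passed the test for a diet difference in any of the 3 comparisons. In depletion against control, limma called 0 of the 43 genes and 0 of all 26387 probes at an adjusted p under 0.05 (0%), with the lowest adjusted p at 0.832. At an unadjusted p under 0.05 there was 1 member, Slc38a3, and 4.83% of all probes. In repletion against control the call was again 0 of 43 and 0% of probes, with 0 members and 1.99% of all probes at an unadjusted p under 0.05. In repletion against depletion it was 0 of 43 and 0% of probes, with 0 members and 3.48% of all probes at the unadjusted level. Over the 3 diets together, limma's F test called 0 of 43 and 0% of probes, with 1 member, again Slc38a3, and 3.1% of probes at an unadjusted p under 0.05. The members' median difference was -0.06 in depletion minus control (18 higher, 25 lower), 0.02 in repletion minus control (23 higher, 20 lower) and 0.06 in repletion minus depletion (28 higher, 15 lower). The medians over all probes were -0.02, 0.01 and 0.04 in the same order, and 45.3%, 53.5% and 58.9% of all probes were higher. The standard error of a member's difference had a median of 0.23, 0.25 and 0.21 in these comparisons.

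**Figure D1:**
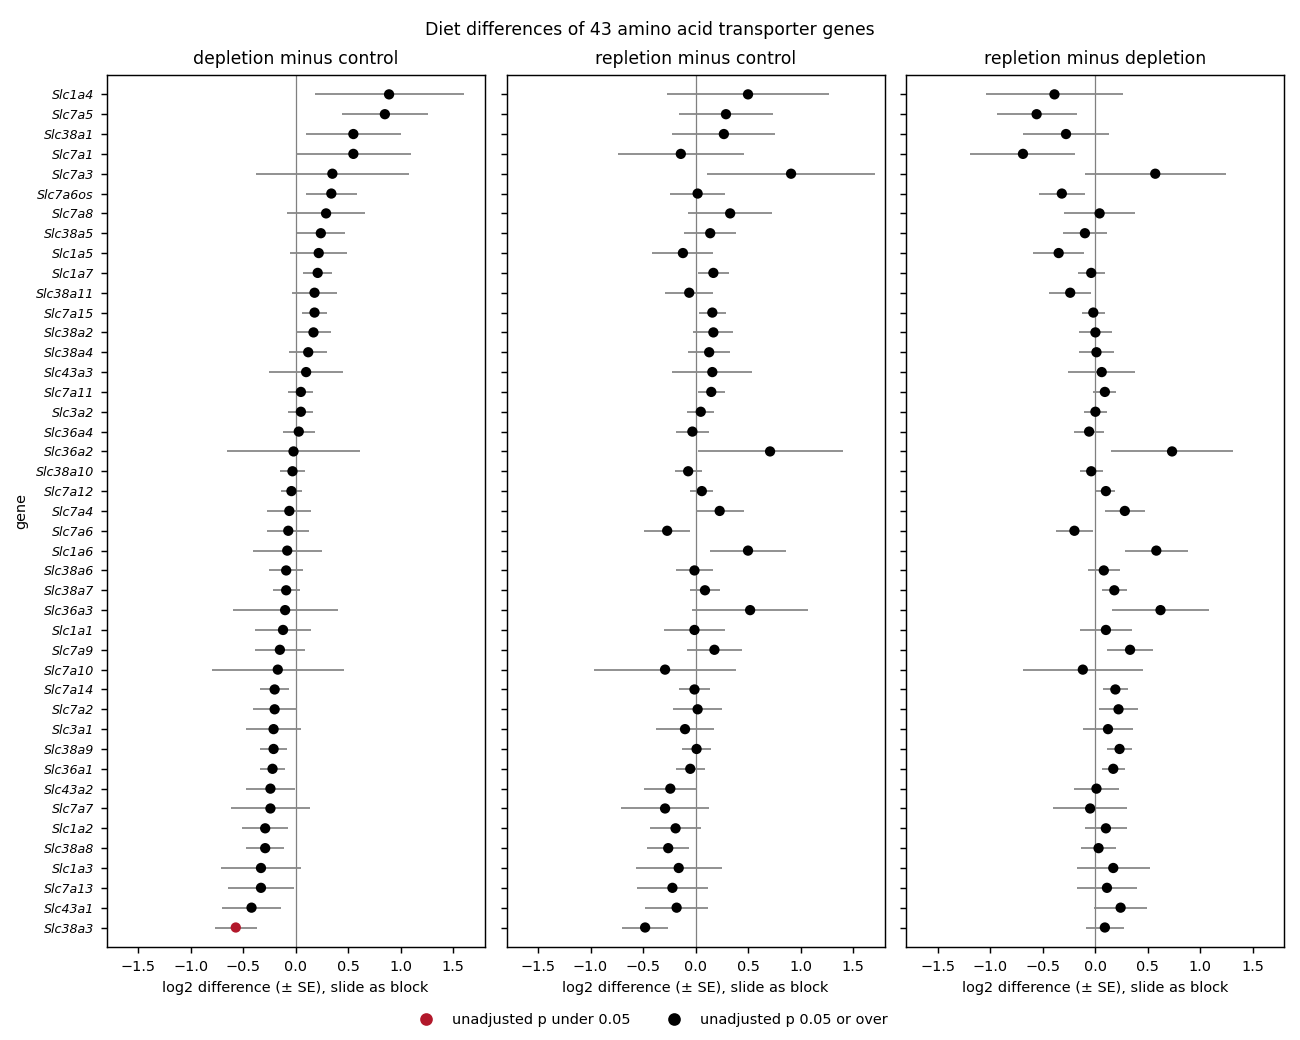
Log2 difference of each of the 43 genes (points) with its standard error (bars) in limma's fit with slide as a block, for depletion minus control, repletion minus control and repletion minus depletion, in the order of the first panel. Red marks an unadjusted p under 0.05, which only Slc38a3 in depletion minus control reached.

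Slc38a3 encodes SNAT3, a system N carrier of glutamine, histidine and asparagine that can run in both directions, and had the smallest p of all members in both comparisons with control. Its probe lies at chr8:112899099-112899158 (minus strand, rn4) and was read from 10 spots on each array. Its level ran from -2.30 to -1.37 with a median of -1.53 on the 6 depletion arrays. On the repletion arrays it was -1.46, -1.79, -1.73 and -1.38, and on the control arrays -1.12, -1.31, -1.08 and -1.26. Every depletion array and every repletion array lay below every control array, while depletion and repletion overlapped. Groups that did not overlap were seen for 1 of 43 members and 0.86% of all probes in depletion against control, and for 1 of 43 members and 1.16% of probes in repletion against control. The difference was -0.57 ± 0.20 (SE) in depletion minus control (unadjusted p = 0.018, limma adjusted p = 0.832) and -0.48 ± 0.22 in repletion minus control (unadjusted p = 0.0548, adjusted p = 1). It was 0.09 ± 0.18 in repletion minus depletion. Within slides, depletion minus control was -1.08, -0.44 and -0.22 on slides 1, 2 and 4, and repletion minus control was -0.24 and -0.71 on slides 1 and 2. Depletion replicate 1, the array of doubtful label, gave the lowest value, and without it depletion minus control was -0.32. Without that array, and with it counted as repletion, 0 members had an unadjusted p under 0.05 in depletion minus control. Over all 29 settings tried the 2 differences from control kept their sign. Markers of slow fibres, macrophages, neutrophils and erythroid cells had mostly higher values in depletion and repletion than in control, though none of their genes passed the test. All 8 slow fibre genes were above control in both diets, by a median of 0.74 in depletion and 0.53 in repletion, and their summed level, in multiples of the array's 75th percentile, was 497 to 921 in depletion, 418 to 893 in repletion and 435 to 541 in control. Of 12 macrophage genes, 11 were above control in depletion and 10 in repletion (medians 0.50 and 0.47), with summed levels of 16.2 to 51.9 in depletion, 28.8 to 33.7 in repletion and 14.7 to 30.7 in control. Of 7 neutrophil genes, 6 were above control in depletion and 7 in repletion (medians 0.95 and 0.38), with summed levels of 0.212 to 1.67 in depletion, 0.276 to 0.57 in repletion and 0.194 to 0.384 in control. All 5 measured erythroid genes were above control in both diets (medians 0.84 and 0.38), with summed levels of 21.1 to 86.5 in depletion, 22.6 to 44.4 in repletion and 17.5 to 37.3 in control. In each of these 4 lists the summed levels of all 3 diets overlapped. At equal diet, limma's F test for slide (adjusted p under 0.05) called 4 of the 7 neutrophil and 2 of the 5 erythroid genes. It called 2 of the 12 macrophage and 0 of the 8 slow fibre genes, against 28% of all probes. Other marker lists were mixed. Of 8 fibroblast genes, 7 were below control in depletion, but 5 were above it in repletion (medians -0.20 and 0.11). Of 8 adipocyte genes, 4 were below control in depletion and 7 in repletion (medians 0.04 and -0.20). Of 8 Schwann genes, 5 were above control in depletion and 6 in repletion (medians 0.06 and 0.44). Of 7 satellite cell genes, 4 were below control in depletion and 5 in repletion (medians -0.16 and -0.06). Of 8 measured T and B cell genes, 4 were above control in depletion and 5 in repletion (medians -0.06 and 0.13). Medians of fast fibre and endothelial genes lay between -0.04 and 0.02. The part of any of these cell types in the Slc38a3 difference was not tested.

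The other SNAT members showed smaller differences or wide spread. Slc38a2 encodes SNAT2, the system A carrier that is induced when amino acids run short. Its level ran from 2.56 to 3.25 (median 2.88) in depletion, was 3.30, 2.85, 2.64 and 3.27 in repletion and 2.82, 2.80, 2.95 and 2.58 in control. The 3 groups overlapped, and depletion minus control was 0.17 ± 0.17. Slc38a1, the system A carrier SNAT1, gave 0.55 ± 0.45 in depletion minus control, but 0.10 without depletion replicate 1, which at -2.20 was its highest array. Within slides 1, 2 and 4 its difference was 1.67, -1.41 and 1.01. Slc38a4, the liver-rich SNAT4, gave 0.12 ± 0.18. Slc38a1, Slc38a2 and Slc38a4 lie next to one another on chromosome 7. Slc38a5, a system N carrier like SNAT3, gave 0.24 ± 0.23, and the lysosomal Slc38a7 gave -0.09 ± 0.13. Slc38a6, Slc38a10 and Slc38a11 gave -0.09 ± 0.16, -0.03 ± 0.12 and 0.18 ± 0.21 in the same comparison.

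Slc38a9, the lysosomal arginine sensor that signals to mTORC1, had the smallest p of all members in repletion minus depletion. On single arrays the level ran from -4.48 to -4.02 (median -4.22) on depletion arrays, was -4.09, -3.90, -4.24 and -3.84 on repletion arrays and -4.21, -4.03, -3.88 and -3.85 on control arrays. Repletion minus depletion was 0.23 ± 0.12 (unadjusted p = 0.0819, adjusted p = 0.933), and repletion was the higher on 4 of 4 slides, by 0.27, 0.12, 0.04 and 0.53 on slides 1, 2, 3 and 5. Depletion minus control was -0.21 ± 0.13, with -0.25, -0.14 and -0.23 on slides 1, 2 and 4. Depletion had the lowest mean of the 3 diets, and its arrays overlapped those of both others. Slc38a8, a family member known from retina and brain, gave -0.26 ± 0.20 in repletion minus control and -0.29 ± 0.18 in depletion minus control. Its level was -4.05, -5.97, -4.08 and -3.84 in repletion and -4.34, -4.34, -5.08 and -3.41 in control, with -5.74 to -3.71 (median -3.99) in depletion. The lowest array of each group was the one on slide 2. The probes of Slc38a9 (chr2:44102316-44102375, plus strand, rn4) and Slc38a8 (chr19:49729475-49729534, minus strand, rn4) read as follows.
Slc38a9 probe: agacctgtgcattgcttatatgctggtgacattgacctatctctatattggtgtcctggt
Slc38a8 probe: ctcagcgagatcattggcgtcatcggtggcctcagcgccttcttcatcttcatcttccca

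The heavy chains carry the light chains to the membrane. Slc3a2 encodes 4F2hc, also called CD98, the partner of most Slc7 light chains. In depletion it ran from 1.12 to 1.67 (median 1.51), against 1.51, 1.42, 1.31 and 1.52 in repletion and 1.44, 1.57, 1.38 and 1.37 in control. The group mean was 1.44 in all 3 diets, with SDs of 0.19, 0.10 and 0.09 in depletion, repletion and control. Differences were 0.05 ± 0.12 in depletion minus control and 0.05 ± 0.13 in repletion minus control. Slc3a1, the heavy chain rBAT known from kidney and gut, gave -0.21 ± 0.26 and -0.10 ± 0.28 in those comparisons. The Slc3a2 probe lies at chr1:211376528-211376587 (minus strand, rn4).
Slc3a2 probe: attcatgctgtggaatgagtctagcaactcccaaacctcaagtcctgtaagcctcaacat

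Slc7a5 encodes LAT1, the light chain that brings leucine into cells in exchange for glutamine, and had the second smallest p of the members in depletion minus control. Its probe lies at chr19:52121389-52121448 (minus strand, rn4). On depletion arrays its level ran from -6.68 to -5.08 (median -5.62). Repletion arrays gave -6.96, -5.97, -6.16 and -6.41, and control arrays -6.43, -6.71, -6.95 and -5.78. The groups overlapped, with control replicates 1 and 4 inside the depletion range. Depletion minus control was 0.85 ± 0.41 (unadjusted p = 0.0693, adjusted p = 0.832), and within slides 1, 2 and 4 it was 1.49, 1.51 and -0.03. Repletion minus depletion was -0.56 ± 0.38, with repletion the lower on 4 of 4 slides. The probe is dim, and the size of its difference varied with the processing. Depletion minus control was 0.05 with normexp correction (offset 50) and 0.26 on the authors' deposited values. An offset added to a dim signal makes its log2 difference smaller, and its part here was not tested. Without depletion replicate 1 it was 0.48.

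Slc7a8 encodes LAT2, a light chain of the same kind. Depletion arrays ranged from -0.44 to 1.1 (median 0.46), repletion arrays gave 0.27, 0.42, 0.14 and 0.97, and control arrays -0.18, 0.46, -0.09 and 0.75. The difference between depletion and control was 0.29 ± 0.37, and -0.02 without depletion replicate 1. Slc7a6, the light chain y+LAT2 that exchanges cationic for neutral amino acids, was measured by 10 spots on each array. Its level ran from -0.30 to 0.35 (median -0.03) in depletion, was 0.02, -0.41, -0.52 and 0.16 in repletion and 0.00, 0.02, 0.22 and 0.01 in control. Repletion minus control was -0.27 ± 0.22 and depletion minus control -0.07 ± 0.20. The groups overlapped, and control had the narrowest span. The levels of Slc3a2 and Slc7a6 across the 14 arrays had a Pearson r of 0.52 (permutation p = 0.0582, adjusted over 6 light chains 0.243) and a Spearman rho of 0.51 (permutation p = 0.0643, adjusted 0.281). Without the 2 arrays farthest from the median r was 0.46, and centred within slides it was 0.45 (adjusted p = 0.645). For Slc7a8 r was 0.43 (adjusted p = 0.243) and rho 0.47 (adjusted p = 0.281). For Slc7a5, Slc7a7, Slc7a10 and Slc7a11, r with Slc3a2 was -0.02, -0.38, 0.22 and -0.46. For Slc7a11, r of the uncentred levels was -0.18 without the 2 farthest arrays. Centred within slides its r was 0.21, and 0.10 without the 2 farthest arrays. In both forms none of the 6 light chains passed.

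Slc7a9, the light chain that pairs with Slc3a1, gave 0.33 ± 0.22 in repletion minus depletion, and 0.62, 0.69, -0.40 and 0.43 on slides 1, 2, 3 and 5. Its level ran from -5.13 to -4.06 (median -4.51) in depletion, was -4.47, -3.37, -4.88 and -4.70 in repletion and -5.00, -4.74, -3.93 and -3.60 in control. These ranges overlapped widely. Slc7a7, y+LAT1, was well above background on only 8 arrays and gave -0.24 ± 0.38 in depletion minus control. Slc7a10, Slc7a12 and Slc7a13 gave -0.17 ± 0.63, -0.04 ± 0.10 and -0.33 ± 0.31. Slc7a6os, the gene beside Slc7a6 that is no carrier, gave 0.34 ± 0.24.

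Slc7a1 encodes CAT1, the main importer of arginine and lysine in most cells, and its 2 probes went separate ways. The brighter probe begins at base 5997 of the transcript. Its level ran from -4.93 to -2.35 (median -3.48) in depletion, with -4.25, -4.52, -3.69 and -4.85 in repletion and -3.33, -4.18, -3.59 and -4.87 in control. Depletion minus control was 0.55 ± 0.55 for this probe, and 1.41, -1.01 and 1.61 within slides 1, 2 and 4. It was 0.14 without depletion replicate 1, the probe's highest array. The other probe, which begins at base 1682 of the transcript and spans an exon junction on the genome, gave -0.17 ± 0.11 and had SDs of 0.76, 0.80 and 0.80 in depletion, repletion and control. That probe differed between slides (adjusted p = 3.64e-05), while the brighter one did not pass (adjusted p = 0.812). No direction can be given for Slc7a1 from these probes. The junction probe maps to chr12:7247219-7247791 (plus strand, rn4).
Slc7a1 probe: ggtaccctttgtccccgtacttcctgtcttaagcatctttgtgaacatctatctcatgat
Of the 10 genes with 2 probes, 8 had both pass the filter, and the signs of the 2 probes matched in 4 of 8 in each of the 3 comparisons. Slc7a15, a light chain family member, gave 0.18 ± 0.12 by its brighter probe and -1.27 ± 0.50 by the other (unadjusted p = 0.0307) in depletion minus control. Slc1a7, the glutamate carrier EAAT5, gave 0.21 ± 0.14 and -0.34 ± 0.15 (unadjusted p = 0.0469 for the dimmer probe). Slc36a4, the Slc36 family carrier PAT4, gave -0.03 ± 0.16 and 0.57 ± 0.22 in repletion minus control. Among the other cationic carriers, Slc7a2 (CAT2) gave -0.20 ± 0.21 and Slc7a3 (CAT3) 0.35 ± 0.73 in depletion minus control. Slc7a4, a member of that branch, gave -0.06 ± 0.21.

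Slc43a1 encodes LAT3, which carries leucine and its kin without exchange. In depletion it spanned -2.94 to -1.75 (median -2.28), against -1.88, -2.13, -2.60 and -1.84 in repletion and -2.30, -1.94, -1.75 and -1.55 in control. Depletion minus control was -0.42 ± 0.28 (unadjusted p = 0.164, adjusted p = 0.832), lower on 3 of 3 slides by -0.57, -0.28 and -0.63. Repletion minus control was -0.18 ± 0.30. Slc43a2, the related LAT4, gave -0.24 ± 0.23 and -0.24 ± 0.25 in those comparisons. Slc43a3, which carries purine bases, gave 0.10 ± 0.35 in depletion minus control, and -0.38 without depletion replicate 1. The Slc43a1 probe lies at chr3:68083249-68083308 (plus strand, rn4).
Slc43a1 probe: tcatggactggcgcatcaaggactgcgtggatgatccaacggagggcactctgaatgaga

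**Figure D2:**
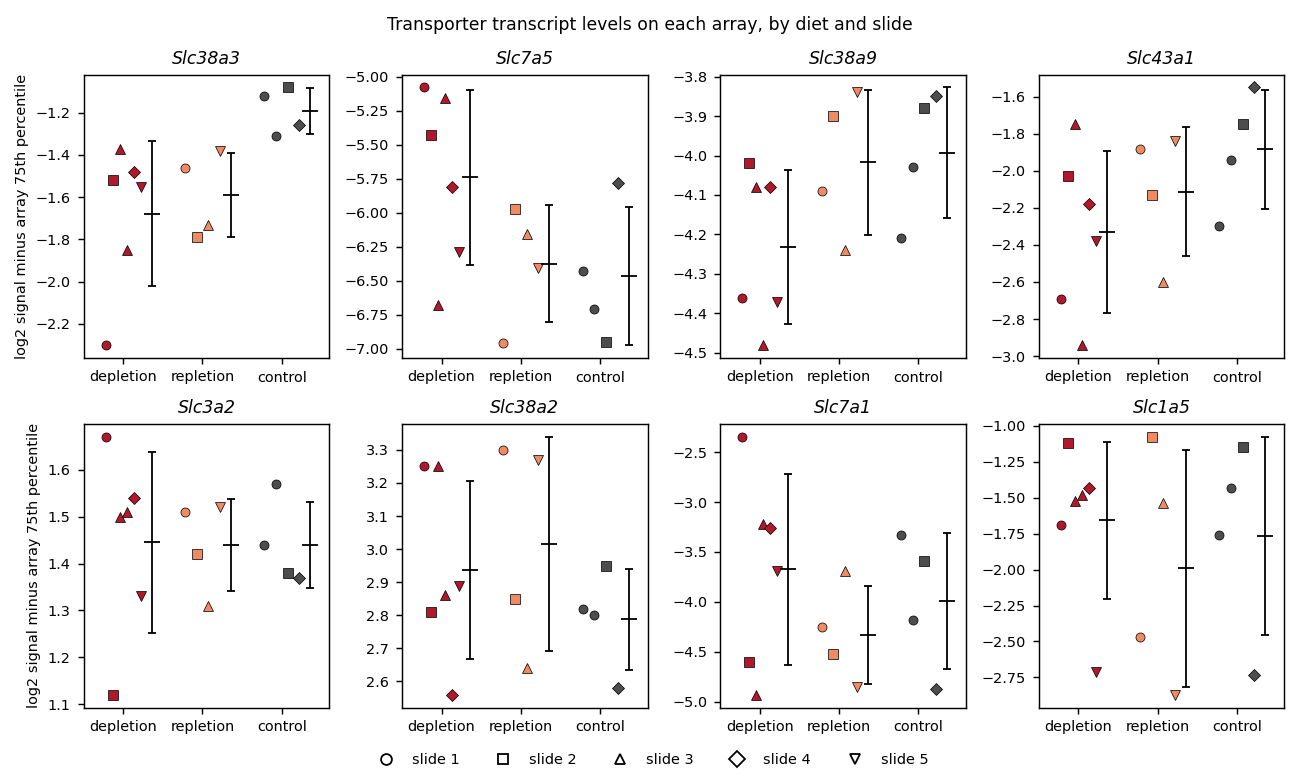
Level of 8 members on each array (points; shape gives the slide), as log2 signal minus the array's 75th percentile, with the mean and SD of each group to the right of its points. Slc38a3 is the member whose control arrays (-1.31 to -1.08) lie above all arrays of depletion (-2.30 to -1.37) and repletion (-1.79 to -1.38).

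The proton-coupled carriers of the Slc36 family move small amino acids out of lysosomes or into cells with protons. Slc36a1, the lysosomal PAT1, ran from -6.24 to -4.25 (median -5.20) in depletion, with -5.80, -4.09, -4.79 and -5.79 in repletion and -5.97, -5.76, -4.25 and -5.07 in control. Depletion minus control was -0.22 ± 0.12 with slide as a block (unadjusted p = 0.107), and 0.03 without the block. Within slides 1, 2 and 4 it was -0.37, 0.00 and -0.48. Slide means spanned 1.75 for this gene, far more than the diet differences. Slc36a2 and Slc36a3, which neighbour it on chromosome 10, gave 0.73 ± 0.58 and 0.62 ± 0.46 in repletion minus depletion, with wide errors at a dim signal. Slc36a2 gave 0.24 without depletion replicate 1 and -0.03 with that array counted as repletion. Slc36a3 gave 0.04 without depletion replicate 6 and 0.04 with normexp correction (offset 50).

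Among the sodium-driven exchangers, Slc1a5 encodes ASCT2, which brings in glutamine, and Slc1a4 encodes ASCT1, which exchanges alanine, serine and cysteine. The level of Slc1a5 ran from -2.71 to -1.12 (median -1.50) in depletion, was -2.47, -1.08, -1.54 and -2.87 in repletion and -1.76, -1.43, -1.15 and -2.73 in control. The depletion minus control difference was 0.22 ± 0.27 for Slc1a5 and 0.89 ± 0.71 for Slc1a4. The spread was within each diet rather than between them. Both genes passed limma's F test for slide at equal diet (adjusted p = 0.0265 for Slc1a4 and 0.027 for Slc1a5). Slide 2 had the highest mean for both and slide 5 the lowest. The lowest 4 arrays were the same for both genes: depletion replicate 6, repletion replicates 1 and 4 and control replicate 4. Depletion replicate 6 and repletion replicate 4 are the arrays of slide 5. On these 4 arrays Slc1a5 was at or below -2.47, against -1.76 to -1.08 on the other 10. Slc1a4 was at or below -7.29 on them, against -6.83 to -4.44 on the other 10, and on 3 of the 4 it was not well above background. Depletion replicate 5, on the same slide as control replicate 4, had the highest Slc1a4 level at -4.44 and a Slc1a5 level of -1.43, against -8.13 and -2.73 on control replicate 4. These 4 arrays hold all 3 diets, and were picked out by their values, so their shared low levels were not tested. The genes lie on chromosomes 14 and 1. The Slc1a5 probe maps to chr1:77124500-77124559 (plus strand, rn4).
Slc1a5 probe: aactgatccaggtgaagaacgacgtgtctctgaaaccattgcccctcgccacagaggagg

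**Figure D3:**
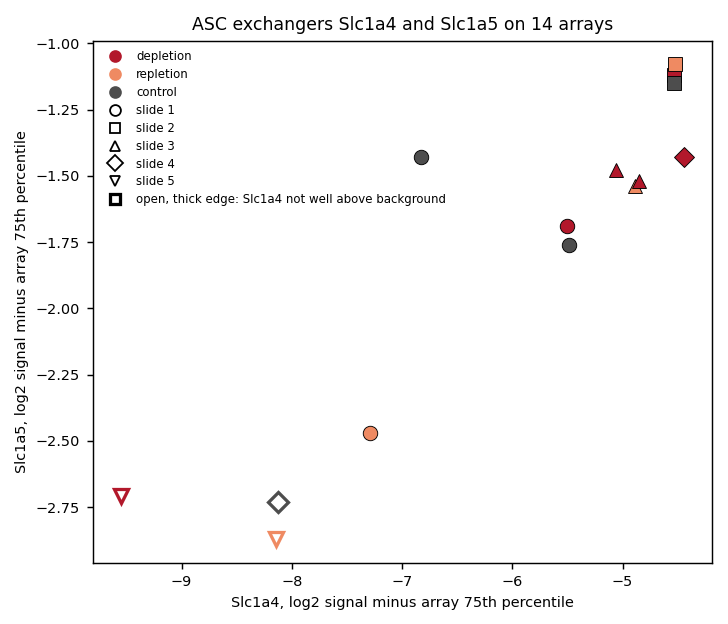
Level of Slc1a4 against Slc1a5 on each of the 14 arrays, both as log2 signal minus the array's 75th percentile; colour gives the diet, shape the slide, and open points are arrays where Slc1a4 was not well above background. The 4 arrays at the lower left, with Slc1a5 at or below -2.47, come from all 3 diets.

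Of the glutamate carriers of the Slc1 family, Slc1a6, EAAT4 of cerebellar neurons, had the second smallest p in repletion minus control and in repletion minus depletion. Across arrays it ran from -9.76 to -6.25 (median -7.09) in depletion, was -7.88, -6.00, -7.26 and -6.86 in repletion and -9.63, -9.0, -5.74 and -6.56 in control. Repletion minus control was 0.50 ± 0.36 and repletion minus depletion 0.58 ± 0.30 (unadjusted p = 0.0853, adjusted p = 0.933). The probe was well above background on 9 of 14 arrays, and the differences were -0.29 and 0.00 with normexp correction (offset 50). Without repletion replicate 1, repletion minus control was -0.10. Slc1a1, Slc1a2 and Slc1a3, carriers of the same branch, gave -0.12 ± 0.27, -0.29 ± 0.22 and -0.33 ± 0.38 in depletion minus control.

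More members differed between slides than between diets. At equal diet, 15 of 43 members passed limma's F test for slide (adjusted p under 0.05), against 28% of all probes. The count of members was 2 with normexp correction (offset 50), where 7.98% of all probes were called. It was 7 without control replicate 3, 9 without control replicate 4, 8 without repletion replicate 2, 6 without depletion replicate 2 and 8 without depletion replicate 6. Of the 15, 11 had their highest mean on slide 2, as did 65.5% of all 7396 probes called between slides. Among members with a mean level under -4, 10 of 20 were called, and among the rest 5 of 23; over all probes the shares were 49.3% and 15.2%.

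The member with the smallest slide p was Slc7a15, with an adjusted p of 7.1e-06. Its level was -1.84, -1.90 and -1.99 on the 3 arrays of slide 2 (depletion, repletion and control) and -4.23, -4.36, -4.69 and -4.36 on the 4 of slide 1, so each slide gave nearly the same value whatever the diet. Across groups it ran from -4.63 to -1.84 (median -3.05) in depletion, was -4.36, -1.90, -2.73 and -4.34 in repletion and -4.69, -4.36, -1.99 and -3.56 in control. Slc7a11 encodes xCT, which takes up cystine for glutathione, and its mean was -3.94 on slide 2 and -5.24 on slide 3 (adjusted p = 0.0003). It ran from -5.23 to -3.95 (median -5.05) in depletion, was -4.93, -3.81, -5.37 and -4.80 in repletion and -5.17, -5.25, -4.07 and -4.34 in control. Slc7a14, a lysosomal relative of the cationic carriers, had means of -4.65 on slide 2 and -6.94 on slide 3 (adjusted p = 3.96e-05). Its level ran from -7.19 to -4.66 (median -6.08) in depletion, was -6.16, -4.75, -6.60 and -5.64 in repletion and -5.92, -5.97, -4.55 and -4.91 in control. For Slc7a14, repletion minus depletion was 0.19 ± 0.12 with the slide block. Slc3a2, Slc38a2, Slc38a3, Slc7a5 and Slc7a8 did not pass the slide test, with adjusted p of 0.679, 0.53, 0.85, 0.916 and 0.962.

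**Figure D4:**
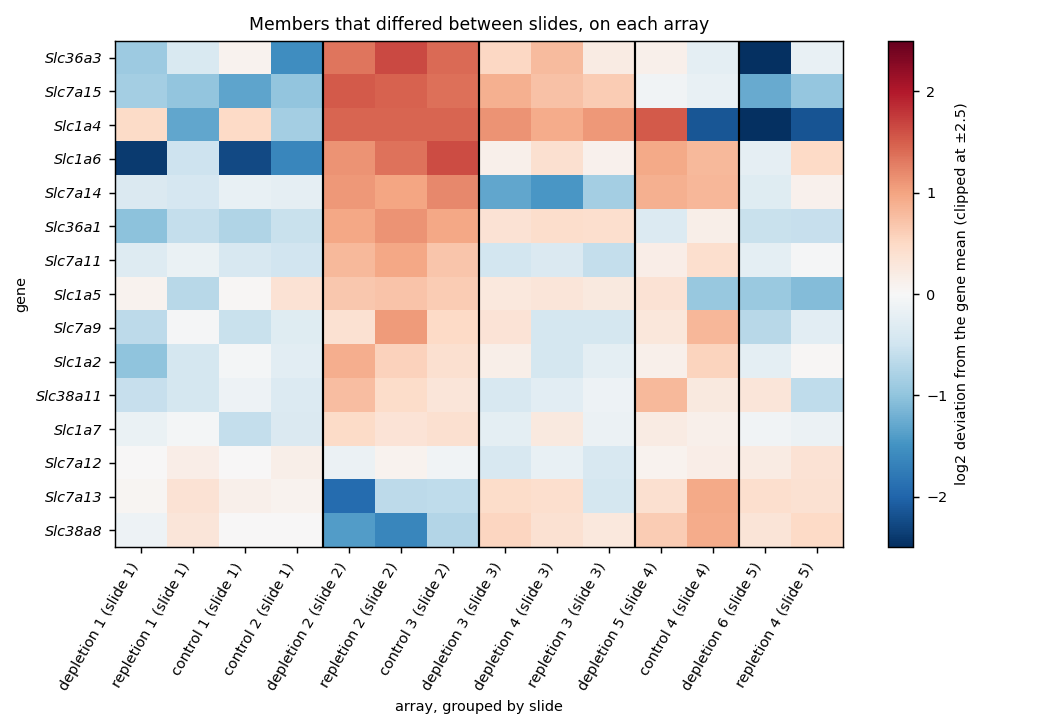
Deviation of each of the 15 members called between slides from its own mean (colour, log2, clipped at 2.5) on the 14 arrays, grouped by slide. The 3 arrays of slide 2, which hold 1 array of each diet, gave the highest slide mean in 11 of the genes, against 65.5% of all probes called between slides.

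Other genes of amino acid handling were read against the same test, and 0 passed in any comparison. Over all probes, 45.3% were higher in depletion than in control, and 58.9% were higher in repletion than in depletion. The counts in these lists include depletion replicate 1, the array of doubtful label. Of 26 measured genes of the amino acid response, 20 were higher in depletion than in control by a median of 0.09. Mthfd2, a mitochondrial folate enzyme induced by Atf4, was higher by 0.72 ± 0.31 (unadjusted p = 0.0447, adjusted p = 0.832), at -3.16 ± 0.56 in depletion and -3.62 ± 0.19 in control (SD, n = 6 and n = 4). Chac1, a glutathione-degrading enzyme and also an Atf4 target, gave -0.35 ± 0.17 (unadjusted p = 0.0687), and Atf5, a related transcription factor, 0.31 ± 0.19. The 3 transporters with the TGATGNAA letters (Slc1a4, Slc38a1 and Slc7a1) had differences of 0.89, 0.55 and 0.55, and 0.76, 0.10 and 0.14 without depletion replicate 1. With normexp correction (offset 50) they were 0.02, 0.29 and 0.26. Slc1a4 gave 0.25 on the authors' deposited values and -0.11 without control replicate 4, and the other probe of Slc7a1 gave -0.17. Of 26 genes of amino acid sensing and mTORC1, 17 were lower in depletion than in control, by a median of -0.08. In that list Nprl3, a part of the GATOR1 brake on mTORC1, gave -0.41 ± 0.18, and Sesn1, a sestrin that restrains mTORC1, -0.45 ± 0.20, with an unadjusted p of 0.0431 and 0.0451. Rragd, a Rag GTPase that anchors mTORC1 at the lysosome, gave -0.45 ± 0.21 there (unadjusted p = 0.0605). It gave 0.56 ± 0.20 in repletion minus depletion (unadjusted p = 0.0206, adjusted p = 0.933). Tfeb, a transcription factor of lysosomal genes, gave 0.29 ± 0.11 in repletion minus depletion. Of 20 genes of branched-chain amino acid breakdown, 16 were lower in depletion than in control, by a median of -0.12, and 16 were higher in repletion than in depletion, by 0.09. Of 17 genes of glutamine, glutamate, alanine and cystine metabolism, 13 were lower in depletion than in control, by a median of -0.05, and Gclc, which starts glutathione synthesis, was at 0.30 ± 0.12. Of 18 further carriers of amino acids and amines, 10 were higher and 8 lower, by a median of 0.02. Depletion minus control and repletion minus depletion share the depletion arrays.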

How the data were processed

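Total RNA of plantaris was labelled with Cy3 and hybridised to 14 arrays, per the labels' protocols. Per the file headers, the deposited intensity is the processed signal of Agilent Feature Extraction 11.5.1.1 (protocol GE1_1105_Oct12), background-subtracted within each array, with probe coordinates on rn4. The authors' deposited table holds log2 values scaled across arrays; per the submitters' processing notes limma was used, with settings not given in the sources used here. It served as an alternative only.

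Spots marked as outliers were set to missing and spots of a probe averaged. Log2 signal was taken relative to each array's 75th percentile. A probe stayed in if 4 or more of 14 arrays had it well above background and each group gave 2 or more values (26387 of 30367). The 3 groups were fitted with limma 3.58.1 in R 4.3.3, with slide as a fixed block, two-sided moderated tests and Benjamini-Hochberg adjustment over all probes. The fit was tested on simulated data with planted changes larger than any member's fitted difference. That test does not show how well smaller changes are found. Correlations were tested with 100000 permutations, within slides for centred values. The titles call the arrays biological replicates. Values by array (for the 6 depletion arrays, the lowest, median and highest) are given for 8 carriers fixed for their role and for the 4 members with the smallest p in each comparison and in the slide test, and from each other list up to 3 genes by smallest p per comparison. Slc1a4, Slc38a1 and the pattern shared by Slc1a4 and Slc1a5 were singled out after their values were seen. The members and lists were chosen with earlier results of these data known.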

Additional observations from a re-analysis of the deposited data

Results flagged for a closer look

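In 129 groups of values (43 genes in 3 diets), 10 had an array far from the others of its group by Dixon's ratio, where chance flags about 1 in 20. Low on depletion replicate 6 were Slc1a4 at -9.55 (nearest other -5.50) and Slc1a5 at -2.71 (nearest -1.69). On depletion replicate 1, Slc36a2 was low at -7.33 (nearest -5.22) and Slc43a3 high at -1.05 (nearest -2.59). Depletion replicate 2 was low for Slc38a7 at -2.08 (nearest -1.87), Slc7a13 at -7.73 (nearest -5.75) and Slc7a3 at -7.75 (nearest -6.40). Repletion replicate 2 was high for Slc36a4 at -4.87 (nearest -5.27) and low for Slc38a8 at -5.97 (nearest -4.08). Control replicate 3 was high for Slc7a6 at 0.22 (nearest 0.02). Of these 10 values, 6 came from the 3 arrays of slide 2.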

How the results depend on the processing

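The count of members called between diets was 0 under every setting that gave a value. The normexp correction was run with an offset of 50 added to the signal. An offset added to a dim signal makes its log2 difference smaller. The part of this offset in the normexp values was not tested. With normexp correction the members' median was -0.20 in depletion minus control and -0.18 in repletion minus control, where the medians of all probes were -0.14 and -0.12. With normexp, Slc1a6 gave -0.29 in repletion minus control and 0.00 in repletion minus depletion, Slc7a14 gave -0.02 in repletion minus depletion, and 2 members were called between slides. Slc36a1 gave 0.03 in depletion minus control without the slide block and 0.24 with a replicate block in place of the slide. That block called 0 members, as did the fit without it. Same-numbered arrays were not taken as pairs: the 12 correlations of their deviations ran from -0.49 to 0.72, and of the 8 over 0.1, 5 were between arrays of one slide. With arrays left out in turn, the members called between slides ran from 6 to 14. Depletion minus control ran from -0.16 to 0.37 for Slc1a5, from -0.01 to 0.14 for Slc3a2 and from -0.02 to 0.56 for Slc7a8, and Slc1a6 ran from -0.10 to 0.79 in repletion minus control. The causes were not tested. The slide test has no value where the slide is not in the model. Probes near background, 8 members of 43 on at least 1 array, limit what can be measured for those genes.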
